A study of Mus musculus with 24 samples.

Results

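The microRNA hairpin miR-339 was followed here through the assays for its arms in the soleus of mice that overexpress a fatty acid receptor in muscle. The assays were chosen by name from the 584 microRNA assays on a pair of TaqMan cards, and 3 were found, mmu-miR-339-5p, mmu-miR-339-3p and rno-miR-339-3p. The prefixes mmu and rno mark assays designed for the mouse and the rat microRNA, so the 3p arm was measured by a mouse and by a rat assay in the same mouse RNA. The hairpin was picked for study on earlier results of the same data, in which mmu-miR-339-5p had a higher level in 1 transgenic line and rno-miR-339-3p differed between lines. The group differences of these assays and of their arms are therefore given as descriptions, with no p-value.

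MicroRNA levels were measured by real-time PCR in soleus, a slow oxidative hind limb muscle, of 12 male mice aged 12 weeks, 3 in each of 4 groups. MCK-PPARa mice carried a PPARalpha transgene and MCK-PPARb mice a PPARbeta transgene, each driven by the muscle creatine kinase (MCK) promoter, which is active in striated muscle. NTGa and NTGb were the wild-type, non-transgenic littermates of the PPARalpha and the PPARbeta line. The labels name no other allele or treatment, and they call the 3 samples of a group biological replicates. Each RNA was run on both cards, so the 24 deposited samples were 12 animals.

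PPARalpha and PPARbeta are nuclear receptors that bind fatty acids and switch on genes of fatty acid uptake and oxidation. A microRNA hairpin is cut by Drosha and Dicer into a short duplex of a 5p and a 3p strand, and either strand can be loaded into Argonaute. Since pairing with messenger RNAs starts from the seed near the 5′ end of the strand, the arms of a hairpin have different targets. In human cells miR-339-5p has been reported to act on MDM2, the ubiquitin ligase that degrades p53, on BACE1, the protease that cuts the amyloid precursor protein, and on ICAM1, an adhesion molecule that leukocytes bind.

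The sequences of both arms are shown because the arms share one precursor and yet differ in seed. They are the RefSeq mature and hairpin sequences of the mouse build GRCm38.p6, where Mir339 lies on the minus strand at chr5:139369650-139369745. Mature miR-339-5p occupies chr5:139369708-139369730 and mature miR-339-3p chr5:139369673-139369695. The capitals in the mature sequences mark the seed, bases 2 to 8, and the capitals in the hairpin mark the arms.
mmu-miR-339-5p: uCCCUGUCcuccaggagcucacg
mmu-miR-339-3p: uGAGCGCCucggcgacagagccg
Mir339 hairpin: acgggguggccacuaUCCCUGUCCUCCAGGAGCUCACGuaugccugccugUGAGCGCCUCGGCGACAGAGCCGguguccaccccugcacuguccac
Among 1738 mouse mature entries searched, 0 other sequences carried the seed of either arm. Rat sequences, and so the 67 assays with rat names, were not part of this search. In the RefSeq gene table the hairpin falls within the span of the protein-coding gene 3110082I17Rik, and the table does not give exons. The sequence of rat miR-339-3p was not analysed here, so the bases in which the rat assay's target differs from the mouse strand, if any, are not given.

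Each value began as a cycle threshold (Ct), the cycle at which fluorescence crosses a set level, so that a lower Ct means more template. A Ct under 35 was counted as detection. Relative abundance, in log2 units, was obtained by subtracting the Ct of an assay from the mean Ct of the 149 card A microRNAs that were detected in every animal, so a value of 0 is the level of that reference and each step of 1 is a doubling if template doubles in each cycle. All 3 miR-339 assays sat on card A, once each, and all were detected in all 12 animals. Between 248 and 296 of the 584 assays were detected in an animal, the fewest in NTGb replicate 3 and the most in NTGb replicate 2. The labelled tissue was checked with microRNAs typical of skeletal muscle, and 6 of 6 were detected in all animals, with mean levels of 5.91 to 6.91 on the log2 scale. Hepatic miR-122 was detected only among the MCK-PPARb animals, and not in all of them. Of 8 epithelial microRNAs on the cards, 2 to 4 were detected in each animal, and miR-183 was detected in none.

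The 5p assay was read at late cycles and varied widely, and its mean was highest in MCK-PPARa. Its log2 relative abundance in the NTGa animals was -4.38, -6.15 and -6.09, with a mean of -5.54 ± 1.01 (SD, n = 3). In MCK-PPARa it was -2.94, -4.08 and -2.90, with a mean of -3.31 ± 0.667 (SD, n = 3). Every MCK-PPARa animal was thus above every NTGa animal, although the nearest pair of animals was only 0.30 apart. In NTGb the values were -4.66, -3.42 and -6.24, with a mean of -4.77 ± 1.41 (SD, n = 3). In MCK-PPARb they were -3.63, -4.11 and -4.60, with a mean of -4.11 ± 0.489 (SD, n = 3). The MCK-PPARb animals lay inside the range of their own controls, which spanned the widest range of any group for this assay.

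On the Ct scale the 5p assay was read at 32.15, 33.82 and 34.01 in NTGa and at 31.00, 32.04 and 30.80 in MCK-PPARa. The corresponding cycles were 33.06, 30.98 and 34.67 in NTGb and 31.74, 32.13 and 32.74 in MCK-PPARb. The latest reading, in NTGb replicate 3, came from the animal with the fewest detected assays and was close to the detection limit, and the lowest NTGa and NTGb levels lay near the floor of -6.56 used for values not detected. The order of the group means was MCK-PPARa, MCK-PPARb, NTGb and NTGa from high to low, and the ranges of each pair of neighbours in that order overlapped.

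The difference of MCK-PPARa from NTGa was 2.23 on the log2 scale (SE 0.78, from the shared residual SD with 8 degrees of freedom), or 4.69-fold. limma with Benjamini-Hochberg adjustment over the 268 tested assays, at an adjusted p under 0.05, did not call it, in a comparison where 2.24 percent of assays were called. Groups that do not overlap were found for 25.7 percent of all tested assays in this comparison, so the separation of the 5p values is a common one here. The difference of MCK-PPARb from NTGb was 0.66 (SE 0.78), in a comparison in which limma called 0 percent of the 268 assays, 23 of them having an unadjusted p under 0.05. Leaving out NTGb replicate 3 turned this difference to -0.09, and leaving out NTGb replicate 2 made it 1.34. The effects of the transgenes differed by 1.57 (SE 1.11), which was not called, against 1.12 percent called over all assays. It was 0.89 without NTGb replicate 2 and 2.32 without NTGb replicate 3. NTGa minus NTGb was -0.76 (SE 0.78) and MCK-PPARa minus MCK-PPARb was 0.81 (SE 0.78), both with overlapping groups and neither called. The former was -0.09 without NTGb replicate 2 and -1.52 without NTGb replicate 3.

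**Figure D1:**
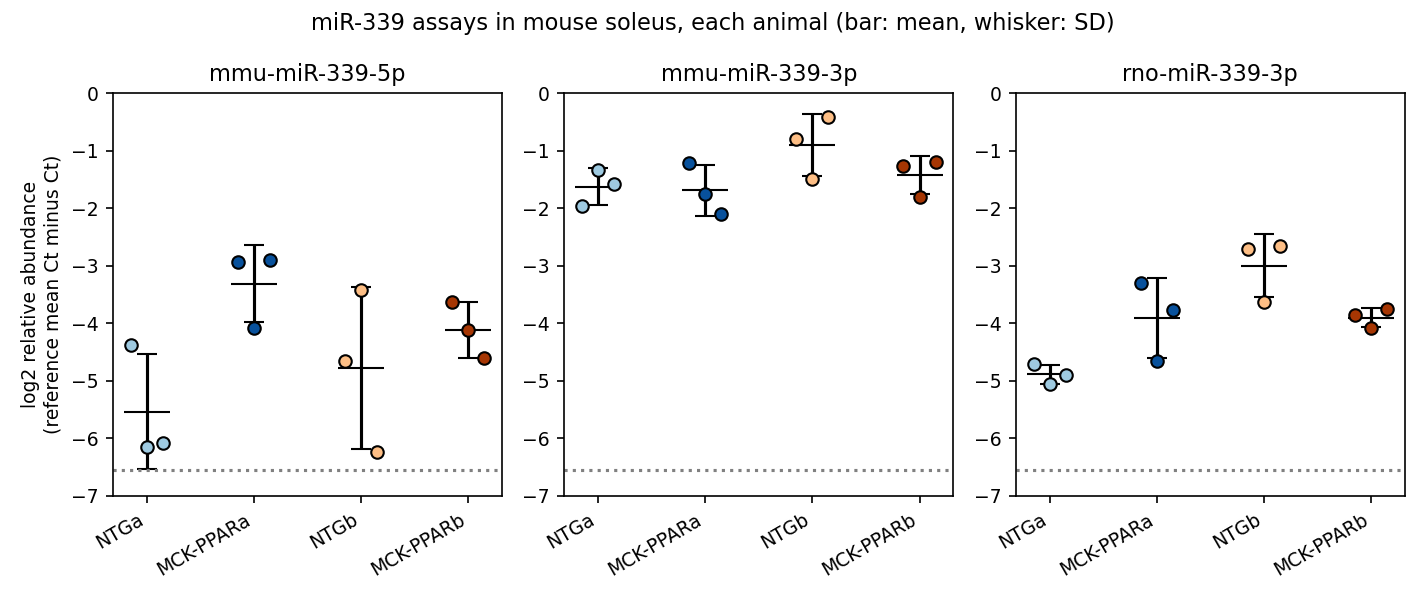
Log2 relative abundance (reference mean Ct minus Ct) of the 3 miR-339 assays in each of the 12 animals, by group, with the bar at the mean and whiskers of 1 SD (n = 3 a group), and with the floor of -6.56 as a dotted line. The 5p values in the left panel are scattered and are no lower than -4.08 in MCK-PPARa, the mouse 3p values in the middle panel overlap between all groups, and the rat 3p values in the right panel are lowest in NTGa and highest in NTGb.

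The mouse 3p assay was read at earlier cycles and was steadier than the 5p assay. Its log2 relative abundance was -1.97, -1.33 and -1.57 in NTGa, with a mean of -1.62 ± 0.320 (SD, n = 3). It was -1.21, -1.74 and -2.10 in MCK-PPARa, with a mean of -1.69 ± 0.450 (SD, n = 3). These groups covered much the same range. It was -0.80, -1.48 and -0.41 in NTGb, with a mean of -0.90 ± 0.544 (SD, n = 3), and the highest single value of the study for this assay was in NTGb replicate 3, the animal in which the 5p arm was lowest. In MCK-PPARb it was -1.26, -1.80 and -1.19, with a mean of -1.42 ± 0.335 (SD, n = 3). From high to low the order was NTGb, MCK-PPARb, NTGa and MCK-PPARa, with every pair of neighbours overlapping. The Ct of this assay stayed between 28.8 and 30.0 in all 12 animals, well inside the measured range.

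The mouse 3p assay differed by -0.06 (SE 0.34) between MCK-PPARa and NTGa and by -0.52 (SE 0.34) between MCK-PPARb and NTGb. NTGa stood at -0.73 (SE 0.34) relative to NTGb, and MCK-PPARa at -0.27 (SE 0.34) relative to MCK-PPARb. The difference of the transgene effects was 0.46 (SE 0.49). limma called none of these 5 differences at an adjusted p under 0.05, and the ranges of the groups overlapped in each of the 4 pairs. Over all assays 0 to 2.99 percent were called in these comparisons and 15.3 to 25.7 percent had groups that did not overlap, so neither count sets this assay apart. On raw Ct the MCK-PPARb animals were all later than the NTGb animals, by 0.125 cycles at the nearest, and this separation was not seen after scaling.

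The rat assay for the 3p arm gave a different order of groups. Its log2 relative abundance was -4.71, -5.05 and -4.90 in NTGa, with a mean of -4.89 ± 0.170 (SD, n = 3). It was -3.30, -4.66 and -3.77 in MCK-PPARa, with a mean of -3.91 ± 0.695 (SD, n = 3), so that MCK-PPARa was above NTGa in every animal by a margin of 0.05 at the nearest. It was -2.70, -3.63 and -2.66 in NTGb, with a mean of -2.997 ± 0.548 (SD, n = 3). In MCK-PPARb it was -3.86, -4.09 and -3.76, with a mean of -3.90 ± 0.169 (SD, n = 3), below every NTGb animal by a margin of 0.13 at the nearest. The transgenic groups had nearly equal means, and the control groups stood on either side of them.

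For the rat assay MCK-PPARa minus NTGa was 0.98 (SE 0.37) and MCK-PPARb minus NTGb was -0.91 (SE 0.37), neither called by limma at an adjusted p under 0.05. Non-overlapping groups were found for 15.3 percent of tested assays in the PPARbeta comparison. The difference of these effects was 1.89 (SE 0.53) and was not called, but limma called it without MCK-PPARa replicate 2 (2.27) or without NTGb replicate 2 (2.20). The control groups differed by -1.89 (SE 0.37), NTGa being 3.71-fold lower than NTGb, and this difference was called by limma, in a comparison where 1.87 percent of assays were called and 19.4 percent had groups that did not overlap. It was the only one of the 15 differences of the 3 assays to be called. The transgenic groups differed by -0.01 (SE 0.37), in a comparison with 2.99 percent of assays called and 24.6 percent with groups that did not overlap. Against all 6 controls the PPARalpha difference of the rat assay became 0.03 and the PPARbeta difference 0.04.

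The call between the control groups was lost in 7 of the 12 fits that left out 1 animal, namely any NTGa animal, NTGb replicate 1 or 3, MCK-PPARa replicate 3 or MCK-PPARb replicate 2. At a detection limit of Ct 32 the value was -0.63 and not called, but all NTGa readings of the rat assay were then set to the floor. The call was also lost with quantile normalization, with no detection limit, with values not detected left missing, with assays detected in all 12 animals only and with no filter. Over the 12 fits the difference itself stayed between -2.21 and -1.74. The raw cycles of the rat assay were close within the control groups, at 32.48, 32.72 and 32.82 in NTGa and at 31.09, 31.19 and 31.10 in NTGb, so that the control groups were 1.29 cycles apart at their nearest before any scaling. In MCK-PPARa the cycles were 31.35, 32.63 and 31.66, which overlapped with NTGa, and the separation of these groups appeared only after scaling. In MCK-PPARb they were 31.97, 32.10 and 31.89, all later than any NTGb animal by at least 0.70 cycles.

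Since both 3p assays carry the name of one strand, they were set against each other in each animal. The mouse minus rat difference on the log2 scale was 2.75, 3.72 and 3.33 in NTGa and 2.09, 2.92 and 1.66 in MCK-PPARa. It was 1.90, 2.14 and 2.25 in NTGb and 2.60, 2.29 and 2.57 in MCK-PPARb. The mouse assay was thus read earlier than the rat assay in all 12 animals, by a mean of 2.52 ± 0.595 (SD, n = 12), and the offset was not constant. Both assays being on card A, it does not depend on the reference. It was larger in every NTGa than in every NTGb animal, by a mean of 1.17 (SE 0.34). At a detection limit of Ct 32 this became -0.13. All NTGa readings of the rat assay are later than that limit and were set to the floor, so nothing is read from that value. The offset was also larger in every MCK-PPARb than in every NTGb animal, by a mean of 0.39 (SE 0.34) and by 0.04 at the nearest. This turned to -0.20 against all 6 controls and to -0.78 against the NTGa controls. Of all tested assays, each taken singly, 19.4 percent had groups that did not overlap between the controls and 15.3 percent in the PPARbeta comparison. Over the 47 arm pairs, which like the offset are differences between assays, the shares were 17 and 10.6 percent. No share was taken over the pairs of mouse and rat assays, so the separation of the offset is a description only. Between the controls the rat assay thus differed by -1.89 and the mouse assay by -0.73.

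Assays of the same name from both species were available for 7 microRNAs, miR-1, miR-125b*, miR-190b, miR-224, miR-339-3p, miR-489 and miR-7a*. Over the 12 animals, which share cards and scaling, the mouse and rat assays for miR-339-3p had a correlation of 0.673 by Pearson's r and 0.636 by Spearman's rho. This was the highest Pearson r of the 7, the others lying between 0.0209 for miR-224 and 0.643 for miR-190b, while by Spearman's rho miR-7a* was higher, at 0.769. Within groups, with each group's mean removed, r for miR-339-3p was 0.544. The residual SD of the mouse minus rat offset was 0.422 for miR-339-3p and between 0.253 and 1.32 for the other 6 pairs.

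**Figure D2:**
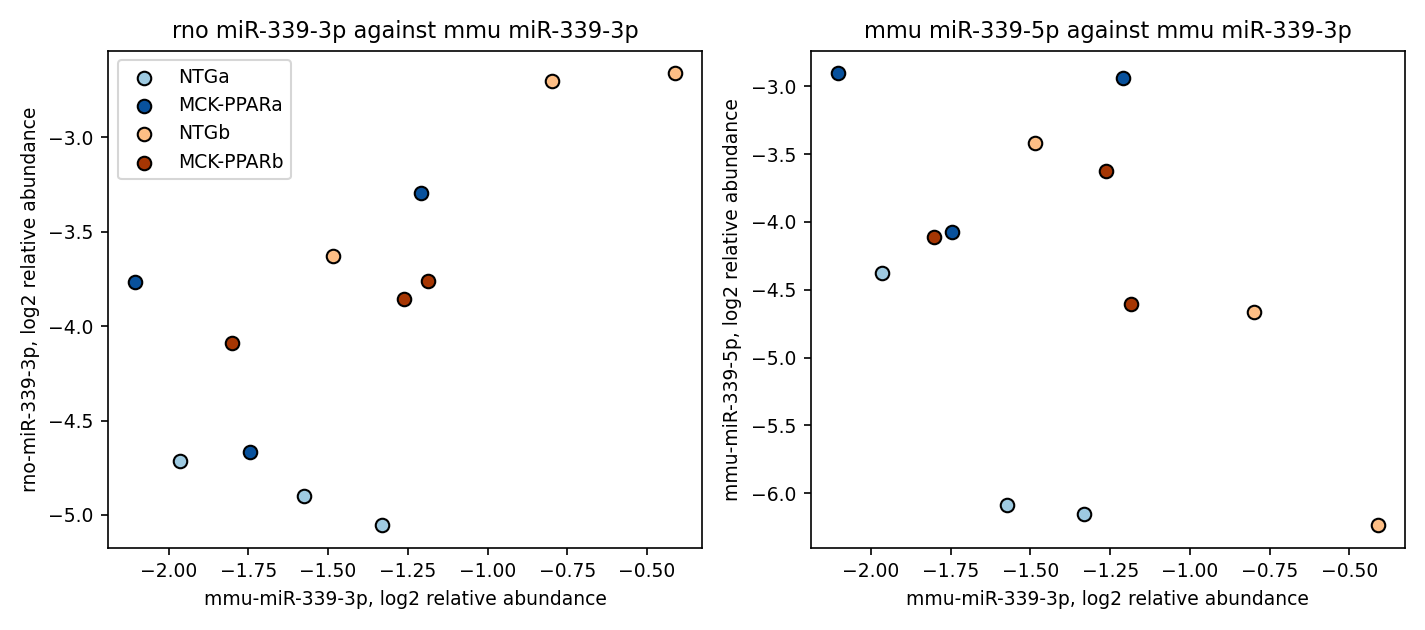
Log2 relative abundance of rno-miR-339-3p (left) and mmu-miR-339-5p (right) on the vertical axes against mmu-miR-339-3p on the horizontal axes, with 1 point for each of the 12 animals and colour for the group. The 3p assays rise together on the left (r = 0.673), with the NTGa animals below the other points, while on the right the 5p assay is lowest in the animal with the highest mouse 3p value.

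The arms were then compared within each animal as 5p minus 3p relative abundance. Ct values of different assays depend on the efficiency of each assay, so the sign and size of this arm difference within an animal do not say which strand is more abundant, and only its change between animals is read. Taken with the mouse 3p assay, the arm difference was -2.41, -4.82 and -4.51 in NTGa and -1.73, -2.33 and -0.80 in MCK-PPARa. It was -3.87, -1.93 and -5.82 in NTGb and -2.36, -2.31 and -3.42 in MCK-PPARb. All MCK-PPARa animals were above all NTGa animals, by 0.08 at the nearest, and NTGb covered the whole range of MCK-PPARb.

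The mean arm difference was 2.29 (SE 1.04) higher in MCK-PPARa than in NTGa, on the side of 5p, and stood 1.18 (SE 1.04) higher in MCK-PPARb than in NTGb. The latter became 0.20 without NTGb replicate 3 and 2.15 without NTGb replicate 2. The control groups differed by -0.04 (SE 1.04), which became 0.93 without NTGb replicate 2 and -1.01 without NTGb replicate 3, and MCK-PPARa was 1.08 (SE 1.04) above MCK-PPARb. The difference of the transgene effects was 1.11 (SE 1.47), or 0.14 without NTGb replicate 2 and 2.09 without NTGb replicate 3. None of these was called by limma over the 47 arm pairs tested. In the PPARalpha comparison limma called 0 pairs (7 with an unadjusted p under 0.05) and in the PPARbeta comparison 0 (3 with such a p). Over those pairs, groups did not overlap for 21.3 percent of pairs in the PPARalpha comparison, 10.6 percent in the PPARbeta comparison, 17 percent between the controls and 17 percent between the transgenic groups.

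Taken with the rat 3p assay, the arm difference was 0.34, -1.10 and -1.19 in NTGa and 0.36, 0.59 and 0.86 in MCK-PPARa. It was -1.97, 0.21 and -3.57 in NTGb and 0.23, -0.02 and -0.84 in MCK-PPARb. All MCK-PPARa animals were again above all NTGa animals, by 0.02 at the nearest. Its difference was 1.25 (SE 0.89) for MCK-PPARa against NTGa and 1.57 (SE 0.89) for MCK-PPARb against NTGb, neither of them called. NTGa minus NTGb was 1.13 (SE 0.89), or 2.12 without NTGb replicate 2 and 0.23 without NTGb replicate 3. MCK-PPARa was 0.81 (SE 0.89) above MCK-PPARb, with groups 0.12 apart at the nearest. Groups did not overlap for 17 percent of the 47 arm pairs in that comparison. Neither of these differences was called. The PPARbeta value became 2.56 without NTGb replicate 2, and limma then called it, and it became 0.67 without NTGb replicate 3. The difference of effects was -0.32 (SE 1.25) with the rat assay, and it turned to 0.18 without NTGa replicate 1 and to 0.58 without NTGb replicate 3, so the lines have no settled order.

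The arm difference was also computed for the other hairpins with both arms tested, 45 in number. In MCK-PPARa against NTGa the leading pairs were miR-425 (3.60), miR-339 with the mouse assay (2.29) and miR-9 (1.76), whose arms were detected in 8 and 6 animals. Since miR-339-5p was picked for its level in MCK-PPARa, and its own difference of 2.23 makes up nearly all of the 2.29, nothing is read from this place. The median size of the shift over the other 45 pairs was 0.619. In MCK-PPARb against NTGb the leading pairs were miR-135a (2.92), miR-339 with the rat assay (1.57) and miR-133a (-1.45). The rat assay was picked for its difference between lines. Its own difference of -0.91 makes up more of the 1.57 than the 0.66 of 5p, so nothing is read from this place either. Between the control groups they were miR-425 (-3.15), miR-135a (3.10), the only called pair, and miR-503 (1.66). Between the transgenic groups they were miR-467a (-2.24), miR-29c (2.21) and miR-31 (-1.52), and in the difference of effects miR-425 (3.66), miR-135a (-2.92) and miR-676 (2.15). With the mouse assay miR-339 ranked 45 of 47 by size between the controls, 12 between the transgenic groups and 13 in the difference of effects. With the rat assay it ranked 8 between the controls, 18 between the transgenic groups and 33 in the difference of effects. Its place between the controls thus depended on the 3p assay. Since the rat assay was picked for its difference between lines, nothing is read from its ranks. The miR-339 pair also had a large spread within groups, with a residual SD of 1.27 against a median of 0.684, and only 2 of the 45 pairs had a larger one.

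The arms of miR-339 did not move together across animals. The Pearson r of the 5p and the mouse 3p assay over the 12 animals was -0.449, with a Spearman rho of -0.448, and within groups r was -0.643. For the other 45 pairs the median r was 0.0825, and 3 of them had a lower r than miR-339. With the rat 3p assay r was 0.204 and rho 0.140. These correlations are over animals of 4 groups that share cards and scaling, and they are given as descriptions.

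The level of the 5p assay and the arm difference moved with the number of assays detected in the animal. Over the 12 animals r with that number was 0.69 for the 5p assay, -0.66 for the mouse 3p assay and -0.38 for the rat 3p assay. For the arm difference it was 0.78 (rho 0.65) with the mouse and 0.87 (rho 0.71) with the rat 3p assay. Without the 2 animals farthest from the median number, r for the arm difference was 0.68 and 0.91. The median r with that number over 238 assays was -0.01. This signed median does not show how often a single assay reaches an r of such size, and no rank was taken. The mean numbers were 278 in MCK-PPARa and 273 in NTGa (two-sided exact permutation p = 0.3, smallest possible p 0.1), and 277 in MCK-PPARb and 268 in NTGb (exact p = 0.6). The part of the number of detected assays in the arm difference was not tested.

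**Figure D3:**
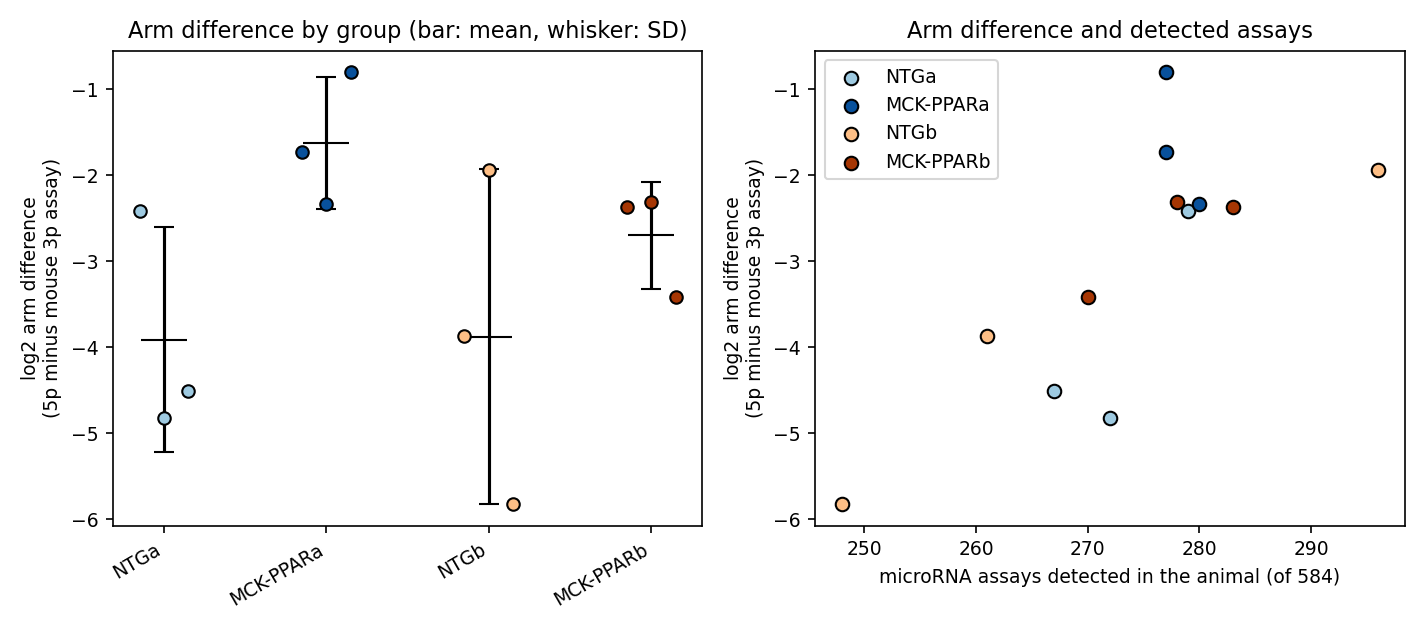
Arm difference of miR-339 on the log2 scale, 5p minus mouse 3p relative abundance, by group on the left with the bar at the mean and whiskers of 1 SD (n = 3 a group), and on the right against the number of the 584 assays detected in the animal. The animal with the fewest detected assays, 248, has the lowest arm difference, -5.82, and the MCK-PPARa animals, at 277 to 280 detected assays, lie between -2.33 and -0.80.

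The spread of the 5p assay was high even for assays read at late cycles. Its residual SD within groups was 0.960, and of the 208 assays detected in all 12 animals only 9 had a larger one. The residual SD was 0.422 for the mouse 3p and 0.459 for the rat 3p assay, against a median of 0.399 over those 208. For assays with a mean Ct of 32 to 35 the median was 0.695, and the 5p assay had a mean Ct of 32.4. The rat 3p assay, at a mean Ct of 31.9, was steadier than most assays of its class, for which the median was 0.598. Card A carried no microRNA in more than 1 well, so well to well error could be seen only on card B. There, wells of one assay differed by a median of 0.192 cycles at a Ct of 25 to 30, 0.381 at 30 to 32 and 0.755 at 32 to 35. At those late cycles 38.5 percent of well pairs differed by more than 1 cycle.

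**Figure D4:**
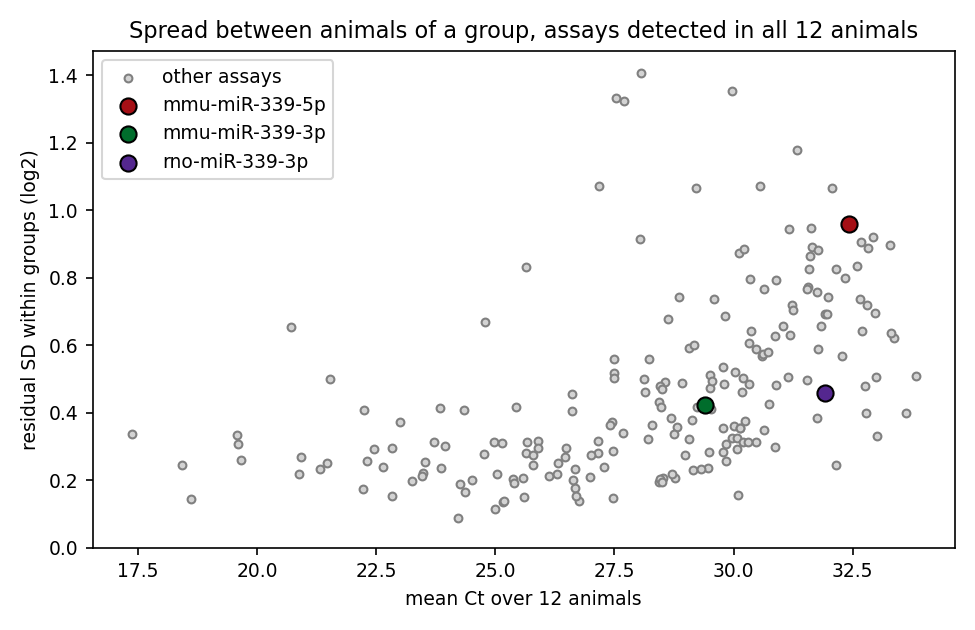
Residual SD within groups (log2 scale) against mean Ct over 12 animals for the 208 assays detected in all 12 animals, with the 3 miR-339 assays in colour. The 5p assay lies near the top at a mean Ct of 32.4 with an SD of 0.960, and both 3p assays lie lower, at 0.422 and 0.459.

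The assays whose levels followed each arm most closely over the 12 animals were ranked by Pearson r among 237 assays detected in at least 10 animals. Closest to mmu-miR-339-5p were miR-532-5p (r = 0.90), miR-221 (0.83), miR-322 (0.80), miR-21 (0.78) and miR-181a (0.75). The rat 3p assay came at rank 85 and the mouse 3p assay at rank 206 of that order. Closest to mmu-miR-339-3p were miR-17 (0.82), miR-484 (0.79), miR-133a (0.77), miR-191 (0.74) and miR-125a-5p (0.73), with the rat 3p assay at rank 10. Closest to rno-miR-339-3p were miR-484 (0.72), miR-210 (0.72), miR-125b* (0.68), mmu-miR-339-3p (0.67) and miR-425 (0.66). Within groups, with each group's mean removed, the r of these 5 was 0.39, 0.31, 0.02, 0.54 and -0.02, so the closeness of miR-125b* and miR-425 lay in the group means. For the 5p list the r within groups was 0.69 to 0.85 and for the mouse 3p list 0.58 to 0.87. The lists of the 3p assays thus shared miR-484, and neither shared an assay with the list of the 5p arm.

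MicroRNAs that are known, like miR-339-5p, for acting on MDM2, on p53 or under p53 were set beside it. Of 12 listed, 10 were on the cards and 8 were tested. In MCK-PPARa against NTGa all 8 had a positive difference, with a median of 1.03 against 0.12 over all 268 assays, and 3 rose by limma's adjusted p, in a comparison with 6 of 268 assays (2.24 percent) called. These were miR-215, miR-194 (1.40, SE 0.23) and miR-192 (1.01, SE 0.22). miR-215 was at least 4.46-fold higher, being at the floor in all NTGa animals and detected in 5 of 12 animals. It passed the filter only through MCK-PPARa, the group where it was high, so nothing is read from its call. The 8 positive differences, the 3 calls and the median of 1.03 all include it, so nothing is read from them either. miR-34a, a direct p53 target, had a difference of 1.04 (SE 0.38) and was not called. In MCK-PPARb against NTGb 4 differences were positive and 4 negative, with a median of 0.01 against 0.02 over all assays, and limma called 0, with 2 at an unadjusted p under 0.05. The named members were miR-34a (-0.66), miR-194 (0.62), miR-192 (0.60) and miR-25 (-0.47). The list was made with earlier results of these data known, so its counts are descriptions and not a result about p53.

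Of 10 microRNAs reported to act on BACE1, 7 were tested, and limma called 0 of them in either transgene comparison, with 2 and 1 at an unadjusted p under 0.05. Over all assays 2.24 and 0 percent were called, so a count of 0 among 7 is near the background. In MCK-PPARa against NTGa 4 were positive and 3 negative, with a median of 0.01, the named ones being miR-9 (1.62), miR-107 (0.94), miR-195 (-0.67) and miR-29c (-0.44). Of these, miR-9 was detected in 8 and miR-107 in 10 of 12 animals, with overlapping groups. Their NTGa means of -6.10 and -6.12 were near the floor of -6.56, so the size of their differences is limited by it. In MCK-PPARb against NTGb 2 were positive and 5 negative, with a median of -0.03, and the one of lowest p was miR-29b at -0.68 (SE 0.28). Of the ICAM1 pair, which sits in one cluster on the X chromosome in mouse and human, miR-221 differed by 2.22 (SE 0.81) in MCK-PPARa against NTGa and miR-222 by 0.16 (SE 0.19). Neither was called, and in MCK-PPARb against NTGb they stood at 0.98 and 0.01. miR-221 was detected in 11 of 12 animals, and its NTGa mean of -5.88 was near the floor of -6.56. NTGa minus NTGb was -1.82 (SE 0.81) for miR-221 and -0.81 (SE 0.19) for miR-222, neither called. Both had an unadjusted p under 0.05 by limma in that comparison, as did 42 of the 268 assays. miR-221 is also among the assays closest to the 5p arm and, like it, was read at late cycles.

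Markers of other cell types in the muscle were compared in the same fit. In MCK-PPARa against NTGa limma called 0 of 5 tested leukocyte, 0 of 2 endothelial, 0 of 1 erythroid, 0 of 4 smooth muscle and fibroblast and 0 of 3 neural microRNAs, with 1 neural microRNA and none of the others at an unadjusted p under 0.05. With 2.24 percent of all assays called, a count of 0 in lists this short says nothing about those cell types. The summed linear level of the leukocyte markers ranged from 32.3 to 40.2 in NTGa, 32.9 to 42.3 in MCK-PPARa, 28.5 to 46.6 in NTGb and 27.0 to 33.8 in MCK-PPARb. These ranges overlapped in both transgene comparisons. Of the 6 skeletal muscle markers, limma called 1 in MCK-PPARa against NTGa, miR-499, which is encoded in a slow myosin gene and fell by 3.66 on the log2 scale (SE 0.30). In whole muscle, fewer cells of a type and less microRNA per cell cannot be told apart.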

How the data were processed

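Per the labels' protocols, RNAzol B was used to extract total RNA from soleus, and FAM TaqMan assays were run for 40 cycles on 2 cards of 384 wells. Per the file headers and the values, the authors deposited 1 unnormalized Ct per well (a cycle number, no other unit), and left the cell empty where none was reached. The sources used here do not give the software, threshold or baseline. All data columns were matched to samples by name, and both cards of an animal were joined.

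Wells of an assay were averaged per card, an empty well beside a called one counting as Ct 40. Values at Ct 35 or later were set, after scaling, to a floor of -6.56 (card A) or -5.66 (card B). Detected values that scaled to below the floor were raised to it. The scaling reference held 149 microRNAs on card A and 59 on card B. The 268 assays with at least 1 group in which all 3 animals had a detected Ct were tested. limma 3.58.1 in R 4.3.3 (lmFit, eBayes) was fitted to all 12 animals in 4 groups without covariates, with Benjamini-Hochberg adjustment over the 268 assays, or over 47 arm pairs, and 0.05 as the limit. The fit was tested on simulated data. SEs of the miR-339 assays come from their own residual SD, and those of listed microRNAs are limma's moderated SEs. Arms were paired by name (5p with 3p, or main with star strand, taken as main minus star), and miR-339 gave a pair with each 3p assay.

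The assays, lists and comparisons were chosen with earlier results of these data known. Named besides miR-339 were the 5 assays of highest r with each, the 3 arm pairs of largest change per comparison and up to 4 members of lowest p per list. limma's p-values rest on the spread between the 3 samples of a group, pooled over the 4 groups and moderated across assays. The deviations of same-numbered samples of a line had r between -0.19 and 0.37, with both signs in each line, so numbers were not used as pairs. The number of animals limits the precision, and no well replicates exist for these assays.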

Additional observations from a re-analysis of the deposited data

Results flagged for a closer look

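For rno-miR-339-3p the effects of the transgenes ran in opposite directions, with every MCK-PPARa animal above all NTGa animals and every MCK-PPARb animal below all NTGb animals. The difference of the effects was 1.89 on the log2 scale (SE 0.53), and limma did not call it after adjustment over 268 assays. The transgenic groups had means of -3.91 and -3.90 and the control groups of -4.89 and -2.997, so the opposite signs came with a difference between the controls. Groups that did not overlap were found for 25.7 percent of all tested assays in the PPARalpha and 15.3 percent in the PPARbeta comparison. On raw Ct the MCK-PPARa and NTGa animals overlapped, by 0.143 cycles. Against all 6 controls both differences were positive, at 0.0343 and 0.0411, and with the other line's controls both signs turned, to -0.91 and 0.99. The mouse assay for the same arm gave 0.46 (SE 0.49) for this difference.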

How the results depend on the processing

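The differences of mmu-miR-339-5p, and of its arm difference with the mouse 3p assay, moved by less than 1 residual SD under every alternative run, but the PPARbeta difference of 5p turned to -0.09 without NTGb replicate 3, and the 5p assay was not tested at a detection limit of Ct 32. The PPARalpha difference of 5p lay between 1.47 and 2.33 under the other settings and between 1.92 and 2.81 when 1 animal was left out. The 1.47 was with the other line's controls, where the PPARbeta difference of 5p was 1.42. Against all 6 controls 5p gave 1.85 for PPARalpha and 1.04 for PPARbeta, so the gap between the lines depended on the controls. With U6 snRNA as reference, mmu-miR-339-3p gave -0.0449 for the difference of effects and -0.17 between the controls, and rno-miR-339-3p gave 1.39 and -1.34. With the other line's controls, mmu-miR-339-3p gave -0.79 for PPARalpha and 0.21 for PPARbeta, rno-miR-339-3p gave -0.91 and 0.99, the arm difference with the rat assay 2.38 and 0.44, and the mouse minus rat 3p offset 0.12 and -0.78. Against all 6 controls, rno-miR-339-3p gave 0.0343 and 0.0411 and the offset -0.46 and -0.20. At a limit of Ct 32, rno-miR-339-3p gave 0.0889 for PPARalpha, 0.72 for the difference of effects and -0.63 between the controls. The offset gave -0.15, -0.23 and -0.13. More animals were at the floor there, among them every NTGa animal for the rat assay, so these values are limited by the floor.

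The call of rno-miR-339-3p between the controls was lost at Ct 32, with quantile normalization (-1.73) and, at the value of -1.89, with no detection limit, with values not detected left missing, with assays detected in all 12 animals only and with no filter. Leaving out 1 animal in turn gave -2.21 to -1.74 and kept the call in 5 of 12 fits. Its difference of effects ranged from 1.58 to 2.27 and passed the threshold without MCK-PPARa replicate 2 (2.27) or NTGb replicate 2 (2.20). The PPARbeta arm difference with the rat assay ranged from 0.67 to 2.56. The cause of these changes was not tested.

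Assays called between the controls numbered 5, but 29 with U6 snRNA, 14 with animal weights, 2 with quantile normalization, 1 with no filter, and 0 at Ct 32, with no limit, with missing values or with assays detected in all animals. In MCK-PPARa against NTGa, 3 and not 6 were called with missing values, and between the transgenic groups 5 and not 8. In the PPARbeta comparison 1 was called with animal weights, and in the difference of effects 7 with U6 snRNA and 1 with the median reference. Without 1 animal these 5 counts ran from 4 to 12 (PPARalpha), 0 to 1 (PPARbeta), 2 to 6 (difference of effects), 0 to 7 (controls) and 7 to 13 (transgenic groups). Arm pairs called were 0 to 2 in every comparison and setting, including those without 1 animal.

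With the replicate number as a block, the differences of the miR-339 assays kept their values (2.23 for 5p in MCK-PPARa against NTGa) and their calls, 9 and not 6 assays were called in that comparison, and 1 and not 0 arm pairs in each transgene comparison. The deviations of same-numbered samples had r of 0.37, -0.02 and 0.22 in the PPARbeta line and of -0.19, 0.14 and -0.13 in the PPARalpha line. Whether such samples share more than a number was not tested. All 3 assays stand on 1 well per animal, and the 5p assay was read at a Ct of 30.80 to 34.67. On card B, wells of one assay differed by a median of 0.381 cycles at a Ct of 30 to 32 and 0.755 cycles at 32 to 35.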
